A study of Mus musculus and Bos taurus with 6 samples.

Results

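The miR-29 family was followed in 6 small RNA libraries from lactating mammary gland. Its members were all rows of the deposited quantification lists with a mouse (mmu-) or bovine (bta-) prefix and a name beginning with miR-29a, miR-29b, miR-29c or miR-29d, on both arms of the hairpin. This rule found 7 of the 1750 rows in the mouse list and 6 of the 1539 rows in the bovine list. Rows of miR-29 5p arms that the bovine list carries under human (hsa-) or chicken (gga-) names, and bta-miR-29e, are given beside the members and were not counted as members. The rule is by name, and it was set with earlier results of these data known.

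A miRNA is a short RNA cut from a hairpin precursor, and either arm of the hairpin (5p or 3p) can be loaded into an Argonaute protein such as AGO2, which holds it while it pairs with messenger RNA. Pairing rests mainly on the seed, the bases just after the 5′ end of the miRNA. The miR-29 family is known for repressing messenger RNA of collagens and other extracellular matrix proteins and of the DNA methyltransferases DNMT3A and DNMT3B, and miR-29 has been linked to the control of DNA methylation in dairy cow mammary epithelial cells.

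The mouse group held 2 libraries of total RNA from abdominal mammary gland of primiparous FVB/N mice at day 12 of lactation. The lymph node of the gland had been removed. The AGO2 group held 2 libraries of RNA recovered from such glands by co-immunoprecipitation of AGO2 with an EIF2C2 monoclonal antibody. The bovine group held 2 libraries, each made from a pool of biopsies of 2 multiparous Holstein cows at mid-lactation. The cows were fed a low forage diet (forage to concentrate 46:54). The ages of the animals were not given in the sources used here. By the study's account the 2 AGO2 libraries came from different mice, but which mouse library shares an animal with which AGO2 library is not given, so the p-values measure the spread between these libraries, which may be partly technical. A mock immunoprecipitation was not analysed here. The lists hold miRNA rows alone, so the tissue could not be checked against messenger RNA markers.

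Depth, the sum of all listed counts, was 9299807 and 8391916 for the mouse libraries (samples 1 and 2), 3909166 and 5041406 for the AGO2 libraries and 9402483 and 10613807 for the bovine libraries. Levels are given in RPM, the count per 1000000 counts of the library, so a level is a share of the library and not an amount of RNA. In whole tissue, fewer cells of a type and less RNA per cell cannot be told apart. A count of 0 would allow up to 0.323 RPM in mouse sample 1 and up to 0.767 RPM in AGO2 sample 1, the shallowest library. Such limits and the intervals below cover counting error alone. Libraries of the same group differed far beyond counting error, with a chi-square per degree of freedom of 1454 in mouse, 347 in AGO2 and 226 in bovine. The member rows took 3.26% and 4.96% of all counts in mouse samples 1 and 2, 6.56% and 9.51% in AGO2 samples 1 and 2, and 2.56% and 2.21% in bovine samples 1 and 2.

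The listed 3p sequences are shown because the family is defined by them. They are written 5′ to 3′ with bases 2 to 8 of the listed sequence, the seed, in capitals.
mmu-miR-29a-3p: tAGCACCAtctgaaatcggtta
mmu-miR-29b-3p: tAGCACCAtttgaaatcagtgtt
mmu-miR-29c-3p: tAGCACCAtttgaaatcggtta
bta-miR-29a: cTAGCACCatctgaaatcggtta
bta-miR-29d-3p: tAGCACCAtttgaaatcgatta
bta-miR-29e: tAGCATCAtttgaaatcagtgttt
The bovine miR-29b and miR-29c rows were listed with the mouse sequences. The seed AGCACCA was shared by 3 rows of the mouse list and 3 rows of the bovine list, and 0 rows outside miR-29 carried it. With positions counted from 1 at the t of the shared stretch tagca, miR-29c-3p differed from miR-29a-3p by C10T alone. miR-29b-3p differed from miR-29a-3p by C10T, G18A, T21G and A22T. bta-miR-29d-3p differed from miR-29c-3p by G19A, and bta-miR-29e differed from miR-29b-3p by C6T, which lies in the seed. Since 1 base separates miR-29a-3p from miR-29c-3p, a read with an error at that position or a read that ends before the differing bases could be counted in another row; the mismatch setting of the counting is not given in the sources used here.

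The bovine miR-29a row was listed 1 base earlier than the mouse row, with an added c at the 5′ end, so that bases 2 to 8 as listed read TAGCACC in place of AGCACCA. The base before the 3p row was C in 4 of the 4 mouse miR-29 hairpins. The tables give 1 count per row and no read starts, so whether bovine reads began at that base was not measured.

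The 5p rows are shown because they do not share a seed with the 3p rows and differ among themselves.
mmu-miR-29a-5p: aCTGATTTcttttggtgttcag
mmu-miR-29b-1-5p: gCTGGTTTcatatggtggttta
mmu-miR-29b-2-5p: cTGGTTTCacatggtggcttagatt
mmu-miR-29c-5p: tGACCGATttctcctggtgttc
bta-miR-29d-5p: tGACCGATttctcctggtgtt
gga-miR-29b-2-5p: aGCTGGTTtcacatggtggcttaga
The chicken-named miR-29b-2-5p row of the bovine list started 2 bases before the mouse row and ended 2 bases before it. The human-named miR-29a-5p row was the same as the mouse row, and the human-named miR-29b-1-5p row ran 2 bases further at the 3′ end. All 7 mouse sequences were the same as the mature sequences in RefSeq (GRCm38.p6).

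The mouse family comes from 4 hairpins in 2 pairs (GRCm38). Mir29a lies at chr6:31062660-31062747 and Mir29b-1 at chr6:31063023-31063093, both on the minus strand with 275 bases between them. Mir29b-2 lies at chr1:195037040-195037120 and Mir29c at chr1:195037547-195037634, both on the plus strand with 426 bases between them. Mir29b-2 and Mir29c lie inside exon 3 of a transcript of the non-coding gene A330023F24Rik on the same strand, and opposite exon 11 of a transcript of Cd46, a complement regulator. Mir29b-1 overlaps the first exon of the lincRNA Gm27019 by 2 bases, and Mir29a overlaps no other gene of the GENCODE annotation. Both Mir29b genes give the same miR-29b-3p, which has a single row, while each gives its own 5p arm. Bovine positions were not analysed here. The hairpins of Mir29a and Mir29c, shown in RNA letters with both listed arms in capitals, place the 3p arms whose counts differ most within the family.
Mir29a: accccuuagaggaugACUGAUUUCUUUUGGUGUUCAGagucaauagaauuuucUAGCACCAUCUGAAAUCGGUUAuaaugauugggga
Mir29c: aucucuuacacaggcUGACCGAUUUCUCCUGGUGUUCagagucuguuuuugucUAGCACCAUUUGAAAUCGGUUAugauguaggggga

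miR-29a-3p was the most abundant member in all 6 libraries, followed by miR-29b-3p and then miR-29c-3p. miR-29a-3p stood at 26146 and 37113 RPM in mouse samples 1 and 2, at 53497 and 76523 RPM in AGO2 samples 1 and 2, and at 15324 and 13741 RPM in bovine samples 1 and 2. Both AGO2 values lay above both mouse values, and both bovine values lay below them. The share of all rows that separate in this way was not counted, so the orders of groups given here and below are descriptions. By level it ranked 11 and 7 among all rows in the mouse samples, 4 in both AGO2 samples, and 21 and 22 in the bovine samples.

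miR-29b-3p stood at 5640 and 11509 RPM in mouse samples 1 and 2, at 10486 and 16020 RPM in AGO2 samples 1 and 2, and at 7552 and 6041 RPM in bovine samples 1 and 2. Here the groups overlapped: mouse sample 2 lay above AGO2 sample 1, and both bovine samples lay between the mouse samples. The level in mouse sample 2 was 2.04 times that in mouse sample 1, a wider gap than for miR-29a-3p (1.42 times) or miR-29c-3p (1.41 times).

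miR-29c-3p was the least abundant of the 3 and had another order of groups. It stood at 588 and 826 RPM in mouse samples 1 and 2, at 1486 and 2424 RPM in AGO2 samples 1 and 2, and at 2642 and 2179 RPM in bovine samples 1 and 2. Both mouse samples were below the other 4 libraries, and the bovine and AGO2 ranges overlapped. bta-miR-29d-3p, which differs from miR-29c-3p by G19A, had 10.8 and 9.23 RPM in bovine samples 1 and 2, and bta-miR-29e had 4.36 and 3.01 RPM.

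The 5p rows were far lower. miR-29a-5p stood at 116 and 133 RPM in mouse samples 1 and 2, at 116 and 97.8 RPM in AGO2 samples 1 and 2, and, under its human name, at 108 RPM in both bovine samples. All 6 values lay within the narrow range of 97.8 to 133 RPM. miR-29b-1-5p stood at 74.0 and 28.6 RPM in mouse samples 1 and 2, at 23.3 and 9.12 RPM in AGO2 samples 1 and 2, and, under its human name, at 36.1 and 30.1 RPM in the bovine samples.

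miR-29b-2-5p stood at 25.2 and 9.77 RPM in mouse samples 1 and 2. In AGO2 samples 1 and 2 it stood at 0.256 RPM (1 count, 95% exact Clopper-Pearson interval 0.00648 to 1.43) and 2.38 RPM (12 counts, interval 1.23 to 4.16). The chicken-named bovine row stood at 166 and 125 RPM, but its listed start and end differ from those of the mouse row, so unlike sequences are set side by side. Both 5p rows of miR-29b were higher in mouse sample 1 than in mouse sample 2, by 2.59 times for miR-29b-1-5p and 2.58 times for miR-29b-2-5p, while the miR-29b-3p row was higher in mouse sample 2.

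miR-29c-5p stood at 6.67 and 10.8 RPM in mouse samples 1 and 2. In AGO2 samples 1 and 2 it stood at 0.512 RPM (2 counts, 95% exact Clopper-Pearson interval 0.0620 to 1.85) and 5.55 RPM (28 counts, interval 3.69 to 8.03), and both values lay below both mouse samples. In the bovine list the same sequence, carried under its mouse name, had 492 and 439 counts in bovine samples 1 and 2, and bta-miR-29d-5p had 491 and 439 counts (52.2 and 41.4 RPM). The listed 21 bases of bta-miR-29d-5p are contained in the 22 bases of miR-29c-5p, and the counts of these rows differ by 1 and by 0, so they cannot be read as separate measurements. Of 27 such pairs of rows from the bovine list in which one sequence holds the other, 7 had at least 100 counts in each row and sample, and this pair was the 1 pair among them within 1% in both samples.

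**Figure D1:**
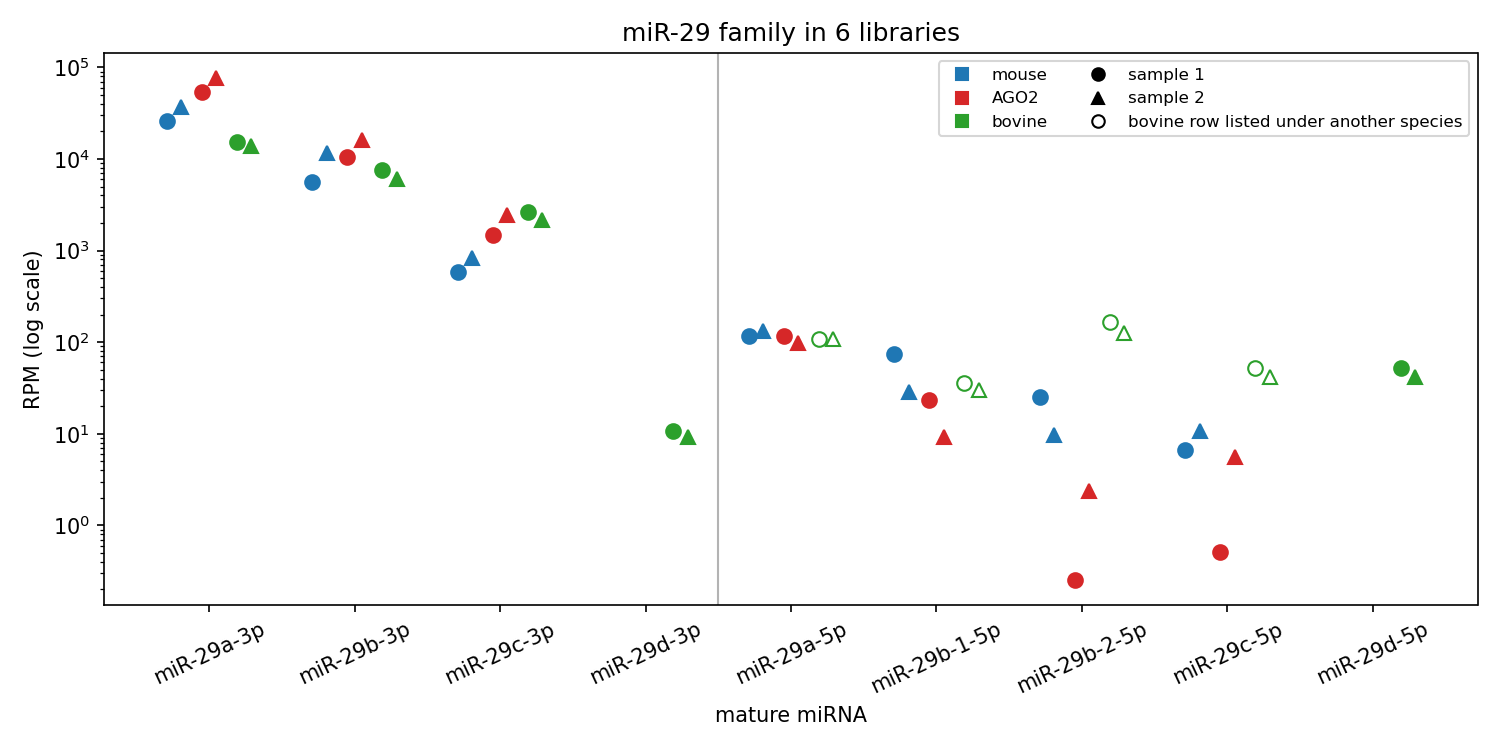
Level of each miR-29 row (RPM, log axis) in each library, with 3p rows left of the line and 5p rows right of it. Colours mark the mouse, AGO2 and bovine groups, circles and triangles mark samples 1 and 2, and open symbols mark bovine values listed under another species' name. The 3 abundant 3p rows lie above all 5p rows in every library.

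The comparison of AGO2 with mouse libraries addresses which miRNA take a larger or smaller share in RNA held by AGO2 than in total RNA of the gland. miR-29a-3p and miR-29c-3p took a larger share in the AGO2 libraries, and no member took a smaller share past the test. miR-29a-3p had a mean of 31630 ± 7754 RPM in mouse (SD, n = 2) and 65010 ± 16282 RPM in AGO2 (SD, n = 2), a log2 fold change of 1.19 (SE 0.35, edgeR quasi-likelihood test with Benjamini-Hochberg adjustment, adjusted p = 0.0137). miR-29c-3p had means of 707 ± 168 and 1955 ± 663 RPM (SD, n = 2 each), a log2 fold change of 1.63 (SE 0.60, edgeR adjusted p = 0.0488). miR-29b-3p had means of 8574 ± 4150 and 13253 ± 3913 RPM (SD, n = 2 each), and its log2 fold change of 0.78 did not pass the test (SE 0.47, edgeR adjusted p = 0.209). Folds come from the fit with TMM scaling between libraries, and with library totals in place of TMM the log2 fold changes in AGO2 were 1.04 for miR-29a-3p, 1.47 for miR-29c-3p and 0.63 for miR-29b-3p.

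Of the 7 mouse members, 6 passed the filter for this test on low counts that the study used and miR-29c-5p did not. Of the 6, 2 were higher in AGO2, 0 were lower and 4 were not called, while over all 299 rows tested 15.4% were higher and 12.4% were lower. With edgeR 2 members were higher and 0 lower at an unadjusted p under 0.05. The share of all rows at that threshold was not counted, so this count is not read as a result. DESeq2 also called 2 members higher and 0 lower, but it called more rows in all, 69 higher and 48 lower of 299. Without a filter edgeR called 0 members, and over all 1750 rows it called 29 higher and 34 lower. The 2 members higher there at an unadjusted p under 0.05 are not read as a result either. The median log2 fold change was 0.35 over the 6 members and -0.12 over all rows tested. The 5p members had estimates from near 0 to far below it with wide errors. miR-29a-5p had -0.08 (SE 0.63, edgeR adjusted p = 0.928), miR-29b-1-5p had -1.52 (SE 1.03, edgeR adjusted p = 0.262) and miR-29b-2-5p had -3.47 (SE 2.01, edgeR adjusted p = 0.190). The sign for miR-29a-5p turned with DESeq2 size factors, which gave 0.02. The miR-29b 5p rows passed the filter through the mouse libraries alone, so no count over the 5p rows is read as a result. The median over the 6 members includes these rows and is not read as a result either.

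Both calls rest on few libraries, and that of miR-29c-3p also on the scaling: with library totals in place of TMM its edgeR adjusted p was 0.0776. Where a library is left out, its group has 1 library, which is taken to vary like the pair of the other group. miR-29a-3p kept its direction but lost its call without mouse sample 1 (edgeR adjusted p = 0.113) and without AGO2 sample 2 (edgeR adjusted p = 0.324). miR-29c-3p kept its direction but lost its call without mouse sample 1 (edgeR adjusted p = 0.281), without mouse sample 2 (edgeR adjusted p = 0.0725) and without AGO2 sample 2 (edgeR adjusted p = 0.315). With all 3p rows of the family added into 1 row, where a read shared between them cannot move, the log2 fold change was 1.16 (SE 0.36, edgeR adjusted p = 0.0126). Their summed level was 32374 and 49447 RPM in mouse samples 1 and 2 and 65469 and 94967 RPM in AGO2 samples 1 and 2.

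**Figure D2:**
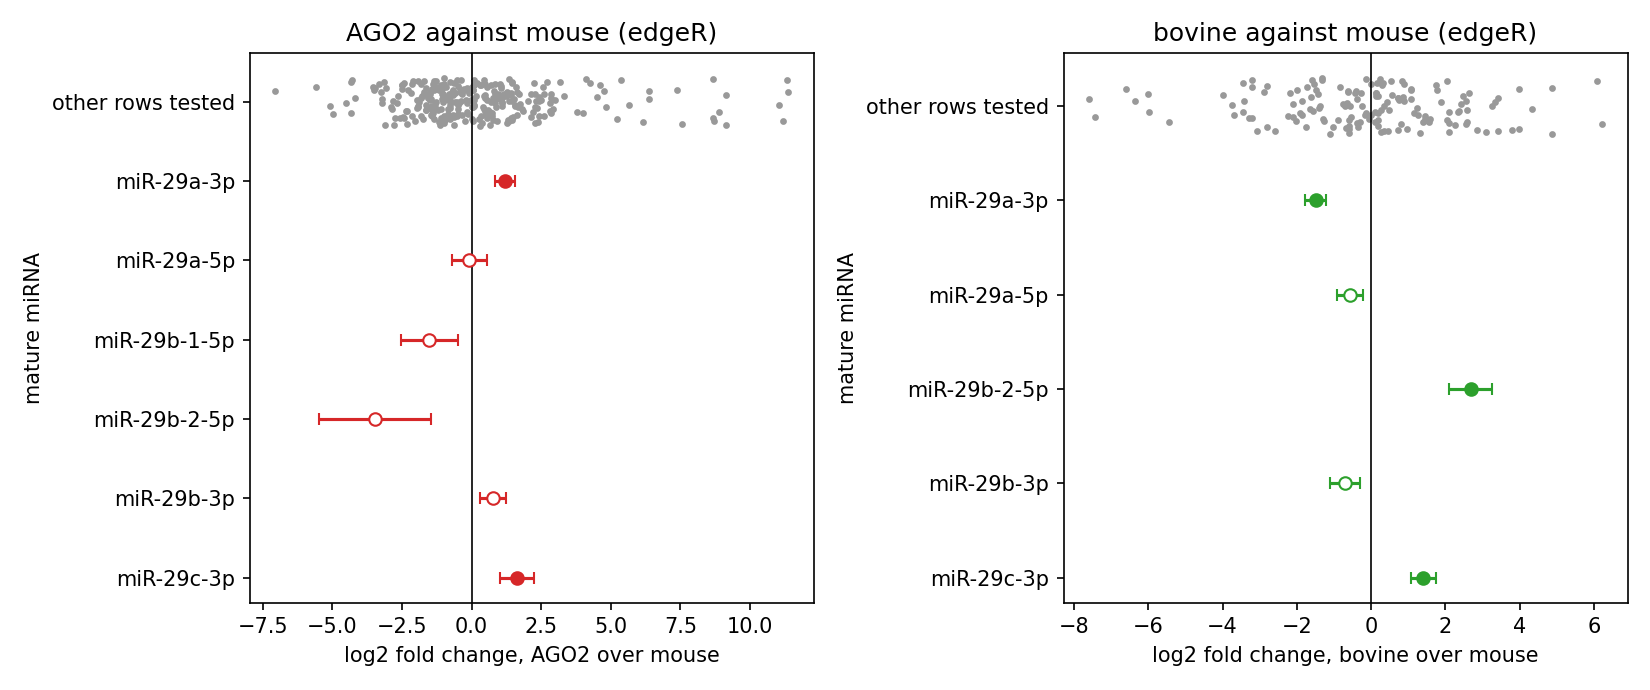
Log2 fold change (x axis) of each miR-29 row tested, AGO2 over mouse on the left and bovine over mouse on the right, with bars of 1 SE, filled where the edgeR adjusted p was under 0.05, and grey points for all other rows tested, jittered upright. miR-29a-3p is at 1.19 in AGO2 and at -1.49 in bovine, whereas miR-29c-3p is above 0 in both.

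The ratio of 3p to 5p counts of a hairpin is taken within a library and needs no scaling between libraries. It was higher in both AGO2 libraries than in both mouse libraries for all 3 of miR-29a, miR-29b and miR-29c. The same order held for 28 of 86 mouse precursors (32.6%), a background described below. The miR-29b 5p rows passed the count filter above through the mouse libraries alone, and miR-29c-5p did not pass it. The count of 3 is therefore not read as a result. For miR-29a, there were 225 and 278 3p counts for each 5p count in mouse samples 1 and 2 and 463 and 783 in AGO2 samples 1 and 2. For miR-29b, set against the sum of its 5p rows, the ratios were 56.9 and 299.9 in the mouse samples and 446 and 1392 in the AGO2 samples, and the mouse samples lay far apart. For miR-29c, the ratios were 88.2 and 76.2 in the mouse samples and 2904 and 436 in the AGO2 samples, the first of these resting on the 2 counts of miR-29c-5p given above.

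On the log2 scale, with 0.5 added to each arm's count, the AGO2 mean exceeded the mouse mean by 1.26 for miR-29a, by 2.58 for miR-29b and by 3.62 for miR-29c, or 2.40, 5.99 and 12.3 times. Leaving out 1 library moved these log2 differences widely for miR-29b, to 1.39 without mouse sample 1, 3.78 without mouse sample 2, 3.40 without AGO2 sample 1 and 1.76 without AGO2 sample 2. For miR-29c the difference was 2.40 without AGO2 sample 1 and 4.84 without AGO2 sample 2, and for miR-29a it ran from 0.89 to 1.64. The exact permutation test over libraries (two-sided) gave p = 0.333 in each case, the smallest p that 2 libraries against 2 allow, so no difference could pass a threshold here. As a background, 86 mouse precursors had at least 100 counts on each arm, summed over the mouse libraries. The filter and the more abundant arm were both taken from the mouse libraries, so the background was selected on a group that is compared. The ratio of the more to the less abundant arm was higher in both AGO2 libraries than in both mouse libraries in 28 (32.6%). It was lower in 40, and the median log2 change was -0.89. The 86 include Mir29a, Mir29b-2 and Mir29c themselves, Mir29b-2 with its own 5p row alone (log2 change 4.70). These counts are therefore descriptions. In the bovine samples 1 and 2, the ratios were 141 and 128 for miR-29a, 37.5 and 38.9 for miR-29b, and 50.5 and 52.7 for miR-29c, with 5p rows carried under human, chicken and mouse names. These lay below both mouse samples for all 3, though with 5p rows whose listed ends differ for miR-29b. The bovine 5p count of miR-29c cannot be told apart from that of bta-miR-29d-5p. The share of all precursors with such an order in bovine was not counted, so this order is a description.

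**Figure D3:**
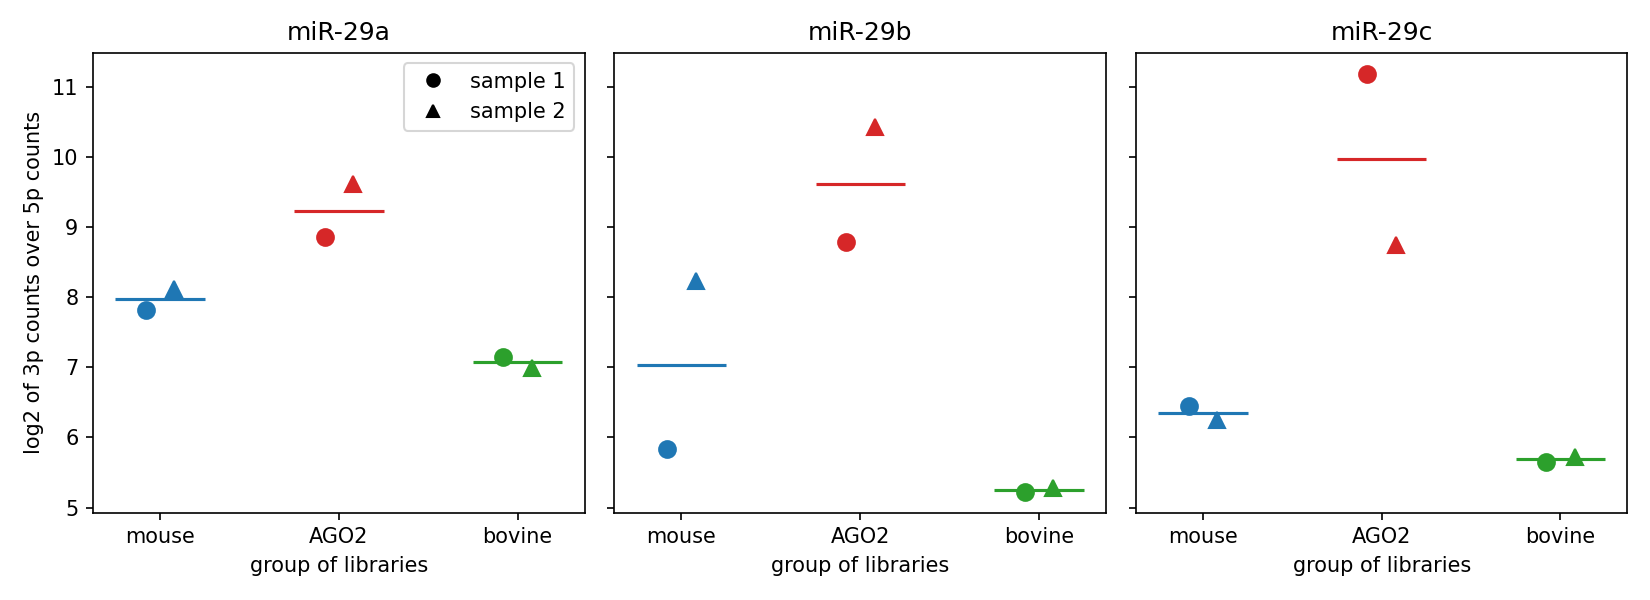
Log2 ratio of 3p to 5p counts (y axis) of miR-29a, miR-29b and miR-29c in each library, grouped by mouse, AGO2 and bovine, with a bar at the group mean of 2 libraries. Both AGO2 points lie above both mouse points and both bovine points lie below them in each panel. The miR-29c point of AGO2 sample 1 rests on 2 counts of the 5p row. The bovine miR-29c points use a 5p count that cannot be told apart from that of bta-miR-29d-5p.

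The comparison of bovine with mouse libraries addresses which miRNA levels of the lactating gland differ between the species. miR-29a-3p took a smaller share in bovine than in mouse, miR-29c-3p took a larger share, and miR-29b-3p did not pass the test. Species, parity, RNA kit (Nucleospin miRNA for bovine, RNA NOW for mouse), the tissue sampled (udder biopsy, abdominal mouse gland) and the pooling of cows change together. They cannot be told apart. This comparison uses the same 2 mouse libraries as the AGO2 comparison.

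miR-29a-3p had a mean of 14533 ± 1119 RPM in bovine (SD, n = 2) against the 31630 RPM of mouse, a log2 fold change of -1.49 (SE 0.28, edgeR adjusted p = 0.00576). miR-29c-3p had a mean of 2411 ± 327 RPM in bovine (SD, n = 2) against the 707 RPM of mouse, a log2 fold change of 1.40 (SE 0.34, edgeR adjusted p = 0.0142). miR-29b-3p had a mean of 6796 ± 1069 RPM in bovine (SD, n = 2), and its log2 fold change was -0.70 (SE 0.40, edgeR adjusted p = 0.184). With library totals in place of TMM, the log2 fold changes were -1.12 for miR-29a-3p, 1.77 for miR-29c-3p and -0.34 for miR-29b-3p, each higher than with TMM. Without mouse sample 1 the estimates moved further from 0, to -1.13 for miR-29b-3p and -0.67 for miR-29a-5p. The spread there is taken from the pair of bovine pools alone, so calls in that fit are not read as results.

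Of the 7 mouse members, all had a bovine row of the same name and arm, and 5 passed the filter of 100 RPM in at least 1 of the 4 libraries. Of these, 2 were higher in bovine, 1 was lower and 2 were not called, while over all 158 matched rows tested 27.2% were higher and 27.8% were lower. The median log2 fold change was -0.57 over the 5 members and 0.06 over all rows tested. The second higher row was miR-29b-2-5p, at 2.68 (SE 0.58, edgeR adjusted p = 0.00923), whose bovine value comes from the chicken-named row with another listed start and end. It passed the filter through the bovine libraries alone, and it could therefore enter the test no other way than by being high there. The count of 2 higher and the median over the 5 members include miR-29b-2-5p and are not read as results. miR-29a-5p had -0.57 (SE 0.36, edgeR adjusted p = 0.220). miR-29b-1-5p and miR-29c-5p did not pass the filter. With no filter, miR-29c-5p was called higher in bovine at 1.88 (edgeR adjusted p = 0.00556) and miR-29b-1-5p was not called at -1.12 (edgeR adjusted p = 0.0683); the bovine miR-29c-5p count cannot be told apart from that of bta-miR-29d-5p.

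The fold changes kept their direction without either bovine sample, but calls were lost. miR-29a-3p had an edgeR adjusted p of 0.0778 without bovine sample 1 and 0.101 without bovine sample 2. miR-29c-3p had an edgeR adjusted p of 0.212 without bovine sample 1 and 0.142 without bovine sample 2, and miR-29b-2-5p had an edgeR adjusted p of 0.0519 without bovine sample 1. With the 3p rows added into 1 row, the log2 fold change was -1.09 (SE 0.27, edgeR adjusted p = 0.0228), and the summed level was 25529 and 21971 RPM in bovine samples 1 and 2.

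The make-up of the 3p counts was set side by side in the 6 libraries. miR-29a-3p made up 80.8% and 75.1% of the summed 3p counts in mouse samples 1 and 2, 81.7% and 80.6% in AGO2 samples 1 and 2, and 60.0% and 62.5% in bovine samples 1 and 2. miR-29b-3p made up 17.4% and 23.3% in the mouse samples, 16.0% and 16.9% in the AGO2 samples, and 29.6% and 27.5% in the bovine samples. miR-29c-3p made up 1.82% and 1.67% in the mouse samples, 2.27% and 2.55% in the AGO2 samples, and 10.4% and 9.92% in the bovine samples. The AGO2 range lay above the mouse range for miR-29c-3p, and the bovine range lay far above both.

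These shares are precise as counts: the 95% exact Clopper-Pearson interval of the miR-29c-3p share was 1.77% to 1.86% in mouse sample 1 and 10.2% to 10.5% in bovine sample 1. bta-miR-29d-3p made up 0.0425% and 0.0420% in bovine samples 1 and 2. The ratio of miR-29a-3p to miR-29c-3p was 44.5 and 44.9 in mouse samples 1 and 2, 36.0 and 31.6 in AGO2 samples 1 and 2, and 5.80 and 6.31 in bovine samples 1 and 2. Its mean was 44.7 ± 0.318 in mouse, 33.8 ± 3.14 in AGO2 and 6.05 ± 0.357 in bovine (SD, n = 2 each). The ratio of miR-29a-3p to miR-29b-3p was 4.64 and 3.22 in the mouse samples, 5.10 and 4.78 in the AGO2 samples, and 2.03 and 2.27 in the bovine samples. With 2 libraries a group, an exact permutation test could give no p below 0.333 for any of these ratios, so they stand as descriptions. The listed start of bta-miR-29a, 1 base before that of the mouse row, enters its share and its ratios; its part in the difference was not tested.

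**Figure D4:**
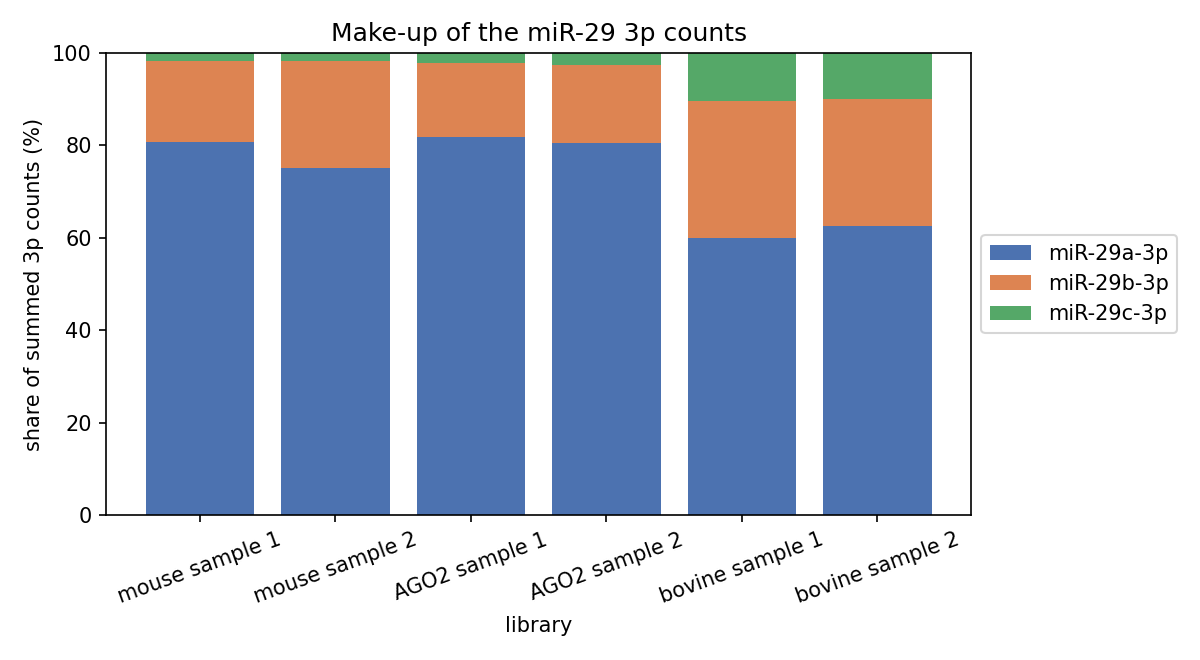
Share of the summed miR-29 3p counts (y axis, %) taken by miR-29a-3p, miR-29b-3p and miR-29c-3p in each library; the bovine miR-29d-3p share, about 0.042%, is not drawn. The miR-29c-3p segment is near 2% in the 4 mouse and AGO2 libraries and near 10% in both bovine libraries.

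Rows with a pattern like that of a member were sought among 64 matched rows with a mean of at least 1000 RPM, by the root mean square difference of log2 levels over the 6 libraries after each row's mean was taken out. For miR-29a-3p, miR-141-3p was nearest, at 0.24, where the median over all rows compared was 1.47, and it was followed by miR-30e-5p at 0.37 and miR-30a-5p at 0.42. For miR-29b-3p, miR-27a-3p was nearest, at 0.19 (median 1.21), followed by miR-30a-5p at 0.21 and miR-30d-5p at 0.41. For miR-29c-3p, miR-99a-5p was nearest, at 0.48 (median 1.35), followed by miR-186-5p at 0.68 and miR-10b-5p at 0.69. No row was among the nearest 3 of both miR-29a-3p and miR-29c-3p. These 6 points share libraries and depth, and the distances are descriptions.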

How the data were processed

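Small RNA was poly(A)-tailed, made into libraries and sequenced on an Illumina instrument. Reads between 17 and 28 nt long were assigned by the authors to precursors of miRBase 20, and to predicted ones scoring above 0, with the miRDeep2 quantifier, the genomes being GRCm38 and UMD3.1 by the submitters' processing notes. The deposited values used are these whole-number read counts per miRNA row; the deposited normalized column and the prediction lists were not used.

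Counts were divided by the sum of all listed counts (RPM). AGO2 and mouse libraries, and bovine and mouse libraries, were compared with edgeR 4.0.16 in R 4.3.3 (quasi-likelihood test, TMM, Benjamini-Hochberg over all rows tested, adjusted p threshold 0.05). SE is the absolute log2 fold change over the square root of F. The first comparison took rows with a count above 175 in at least 1 library. The second took rows of at least 100 RPM in at least 1 library, matched by name and arm, with the bta- row where there was one and otherwise the row of another prefix. DESeq2 1.42.0, other scalings, no filter, a GC trend and each library left out were alternatives. Arm ratios were compared by an exact permutation test (scipy 1.17.1). The code of the fits was tried on simulated counts of independent libraries, which does not check the spread between the real libraries. The rows named are all members, their namesakes and the 3 rows nearest each 3p member. Members, lists and tests were chosen with earlier results of these data known.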

Additional observations from a re-analysis of the deposited data

How the results depend on the processing

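No paired analysis was possible because the labels tie no AGO2 or bovine library to a mouse library. The number of miR-29 rows higher in AGO2 than in mouse, 2, became 1 with library totals alone (miR-29c-3p lost), 0 with no filter and 1 with the 3p rows added into 1, and ran from 0 to 2 on leaving out each library in turn. The number lower in AGO2, 0, ran from 0 to 1. The 1 was miR-29b-2-5p without AGO2 sample 2, which sets 1 count in a lone AGO2 library against mouse libraries through which the row passed the filter, and is not read as a result. The number higher in bovine, 2, became 1 with the 3p rows added into 1 and 1 with bta- rows only. It was also 1 with the species lines of the study's supplementary table. With no filter it rose to 3 (miR-29c-5p added), where 90 of all 357 rows were higher. It fell on leaving out either bovine library. The number lower in bovine, 1, was the same in every setting that kept all libraries. It changed on leaving out some libraries, and those counts are not read as results. On leaving out a library, the lone library of its group is taken to vary like the other group. Adding the 3p rows and the narrower matching leave fewer rows to be called; for the other changes the cause was not tested. The sign of the log2 fold change of miR-29a-5p in AGO2 turned to 0.019 with DESeq2 and 0.019 with DESeq2 size factors in edgeR, and ran from -0.22 to 0.18 on leaving out each library. With library totals in place of TMM, the median log2 fold change of all rows moved from -0.12 to -0.27 in AGO2 and from 0.06 to 0.43 in bovine. Over the reads of 17 to 28 nt given by the study, the summed 3p level in AGO2 was 56595 RPM in place of 80218. On the same scale it was 39158 RPM in place of 40911 in mouse and 22608 RPM in place of 23750 in bovine. The gap between AGO2 and mouse was therefore narrower over these reads than over the listed counts. Over all rows, 46 were higher and 37 lower in AGO2, against 29 and 34 with no filter and 28 and 22 without mouse sample 1. In bovine 43 were higher and 44 lower of 158 rows, against 90 and 97 of 357 rows with no filter. Fewer rows passed in either direction on leaving out either bovine library. Apart from leaving out libraries, 28 of 33 fold changes in AGO2 and 33 of 33 in bovine kept their direction and side of the threshold. The log2 difference of the 3p to 5p ratio between AGO2 and mouse ran from 0.89 to 1.64 for miR-29a, 1.39 to 3.78 for miR-29b and 2.40 to 4.84 for miR-29c on leaving out each library. At this depth the 5p rows of miR-29b and miR-29c in AGO2 rest on few counts.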
